A study of Mus musculus with 2 samples.

Results

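RIKEN-named genes are mouse genes that still carry the clone number given to them when full-length cDNAs were first collected in bulk, in the form of digits, letters and the ending Rik. The ending is kept until a function or a human counterpart gives the gene a proper symbol, so many of these genes have little annotation. They are not a pathway: a clone number can stand for a small mitochondrial protein, a very large protein, a long non-coding RNA or a transcribed pseudogene. Long reads show such genes well, because 1 read can follow a transcript from its cap to its poly(A) tail and give its exons in order.

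The genes were selected on measured values: 44 genes of the 548 RIKEN-named genes with at least 1 read had 20 or more reads in each library, summed over all classes of transcript model but genomic. They were 44 of 5162 annotated genes at that depth, and the other 5118 are set beside them below. The libraries are replicates 1 and 2 of 1 group, hearts from females of the strain B6CASTF1/J, aged 14 days, with no treatment and no engineered allele named in the labels. B6CASTF1/J is an F1 hybrid between the reference strain of the mouse genome and a wild-derived strain, so every animal carries both parental genomes. The labels call the libraries biological replicates, but both libraries carry the same donor description. The labels of replicate 2 number its animal in different ways, and none says whether animals were pooled. Whether the libraries come from separate animals is thus not clear. The tests below compare these libraries with each other and cover counting error only.

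Replicate 1 held 896941 reads and replicate 2 held 972159. Levels are given as CPM, a gene's reads per 1000000 of the 858071 and 926560 reads that remained without genomic models and spike-ins, so that 1 read was worth 1.17 and 1.08 CPM. A read stands for 1 transcript, so CPM is not divided by length. The tissue label was checked against its markers: Myh6, the main myosin heavy chain of the heart, had 31270 and 30799 CPM, Col3a1, a collagen of fibroblasts, had 4854 and 4728, and the red blood cell gene Hba-a1 had 8430 and 7375. Of the leukocyte genes, Ptprc had 1 read and 0 reads, while Lyz2, a lysozyme of myeloid cells, had 84 and 71 reads, or 97.9 and 76.6 CPM. RNA of other cell types of the heart was thus present, and its part in the levels below was not tested.

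The 44 genes held 2868 reads in replicate 1 and 3253 in replicate 2, which is 0.334% and 0.351% of the reads behind CPM. Their summed level was 3342 and 3511 CPM, 3427 ± 119 (SD, n = 2). The median gene had 48.2 CPM and the range was 24.1 to 320.9, beside a median of 64.2 CPM in the other 5118 genes. The 5 highest genes held 32.5% and 33.4% of the reads. The read minimum fixes the lower end: 2310039H08Rik with 20 and 23 reads, 2210016L21Rik with 20 and 31 and E130309D02Rik with 21 and 22 were just inside it, and 2410004B18Rik with 19 and 28, C330007P06Rik with 19 and 18 and A530016L24Rik with 17 and 23 just outside. The 504 RIKEN-named genes outside the rule had a median of 1.66 CPM, and 297 of them had reads in both libraries. In whole tissue, fewer cells that express a gene and less RNA per cell cannot be told apart.

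By GENCODE gene type, 38 of the 44 genes were protein coding (86.4%, beside 98.1% of the other 5118), 3 were lincRNAs, 1 was an antisense gene and 2 were transcribed pseudogenes. The 6 non-coding genes held 12.9% and 11.7% of the group's reads. The leading coding transcript, the annotated one with the most reads, encoded a median of 203 codons, beside 387 in the other genes. In 11 of 38 coding genes (28.9%) it had 150 codons or fewer, beside 497 of 4896 (10.2%). The leading transcript had a median of 4 exons and 2152 bases, beside 8 exons and 2491 bases. These shares are descriptions, and no test of the difference was made.

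Several of the sequences below carry what is described of the non-coding and the smallest coding genes. The first set shows a site of 1700020I14Rik, a long non-coding RNA also called Cyrano or Oip5os1, which is known for an unusually complete match to the microRNA miR-7 and for directing its decay. The mature miR-7 sequences are those of RefSeq on GRCm38.p6, with the seed, bases 2 to 8, in capitals, and both share that seed. The site lies at chr2:119602137-119602161 on the + strand of mm10, bases 2935 to 2959 of transcript 1700020I14Rik-202, with the match to the seed in capitals. The pair of miRNAs is shown because their seed is what the site matches.
mmu-miR-7a-5p: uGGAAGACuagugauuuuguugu
mmu-miR-7b-5p: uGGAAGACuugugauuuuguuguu
site in 1700020I14Rik-202: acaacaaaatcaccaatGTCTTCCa

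The site pairs with miR-7a-5p over the seed and over 13 unbroken bases before it, with 4 bases between them. The transcript of 8300 bases held 2 matches to the seed, and only this one had the longer stretch. Of 55450 genes with a GENCODE M21 transcript, 1700020I14Rik was the 1 gene with this stretch and seed match within 6 bases of each other. A match is a description of letters and says nothing of binding in these hearts.

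The second set shows elements of 2900097C17Rik, known as Norad, a cytoplasmic non-coding RNA with many binding sites for PUMILIO proteins, which repress messenger RNAs. Transcript 2900097C17Rik-202, of 4915 bases on the - strand of chromosome 2, held 11 matches to TGTANATA on its own strand, 2.24 per 1000 bases, overlapping ones counted. Among 1876 non-coding GENCODE transcripts of 4000 to 6000 bases it was the 1 with that many, and the median was 0. In 4 of the 11 the letters GGACAA followed within 4 bases, and these 4 are shown with the element in capitals, at chr2:156391442-156391461, chr2:156391136-156391155, chr2:156390514-156390533 and chr2:156390211-156390230.
element in the window from base 1519: gctgTGTATATAgtggacaa
element in the window from base 1825: atacTGTATATAatggacaa
element in the window from base 2447: atatTGTACATActggacaa
element in the window from base 2750: actaTGTATATAggggacaa

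The third set shows the reading frames of 2 small genes. 1810058I24Rik is annotated as a lincRNA but is known to encode a micropeptide of mitochondria, and the first reading frame of 30 or more codons in its leading transcript 1810058I24Rik-203 had 47 codons, from base 115, on chr6:35252768-35261233 across the 3 exons. 1810037I17Rik encodes another-regulin, a membrane micropeptide that binds the calcium pump SERCA, and its coding sequence of 65 codons lies on chr3:122924460-122925479. Start and stop codons are in capitals, and both frames run on the + strand of mm10.
1810058I24Rik-203: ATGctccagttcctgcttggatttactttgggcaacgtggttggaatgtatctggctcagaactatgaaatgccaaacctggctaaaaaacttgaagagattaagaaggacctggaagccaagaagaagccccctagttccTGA
1810037I17Rik-201: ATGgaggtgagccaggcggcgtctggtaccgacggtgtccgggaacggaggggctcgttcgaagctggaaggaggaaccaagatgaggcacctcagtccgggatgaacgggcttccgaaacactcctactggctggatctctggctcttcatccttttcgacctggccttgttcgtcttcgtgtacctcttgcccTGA

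The 47-codon frame was also the first ATG of 1810058I24Rik-203, while the longest frame of that transcript, 72 codons, began at base 2197. In the other non-coding genes with an annotated leading transcript the longest frame had 117 codons in 2810025M15Rik, 97 in 1700020I14Rik, 85 in 2900097C17Rik and 55 in C130080G10Rik.

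Among the coding genes, 2310022B05Rik, the counterpart of human C1orf198, was highest with 271 and 302 reads, or 315.8 and 325.9 CPM (320.9 ± 7.15, SD, n = 2). It was followed by 4833439L19Rik, the counterpart of human KIAA1191, with 232 and 262 reads, or 276.6 ± 8.76 CPM. The membrane protein gene 9530068E07Rik had 172.5 and 197.5 CPM, 0610012G03Rik had 162.0 and 189.9, and 2410015M20Rik had 166.7 and 178.1. The 3 do not differ beyond their spread, which was 17.7, 19.8 and 8.08 CPM (SD, n = 2). All 3 lay below the top 2 genes in both libraries.

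The next coding genes were 1110004F10Rik, which encodes a small acidic protein, with 118.9 and 154.3 CPM, and 2510039O18Rik, the counterpart of human KIAA2013, with 114.2 and 148.9. 2310061I04Rik had 120.0 and 111.2 CPM, and 2610507B11Rik, which encodes a very large lipid transfer protein, had 102.6 and 102.5. C030006K11Rik had 108.4 and 82.02 CPM. The ranges of 1110004F10Rik, 2510039O18Rik and 2310061I04Rik overlap, and that of C030006K11Rik takes in 2610507B11Rik.

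By reads on the gene's own strand, 1700020I14Rik was the highest non-coding gene with 121 and 128 reads, or 141.0 and 138.2 CPM. 2900097C17Rik had 104 and 80 reads, or 121.2 and 86.3 CPM. That level leaves out 189 and 191 reads on models of 1 exon opposite 2900097C17Rik. How strand was set for such reads is not given, so the rank of this gene is uncertain. Another lincRNA, Gm7292, matches 51.6% of 2900097C17Rik-202 at 99.2% identity and had 0 reads in each library. How reads were divided between these 2 genes was not tested. 1810058I24Rik had 57.1 and 88.5 CPM, and the pseudogene 2810025M15Rik had 46.6 and 46.4. The antisense gene C130080G10Rik had 35.0 and 25.9 CPM and the pseudogene 2610005L07Rik 29.1 and 25.9. The first of these was level between the libraries, and the 2 lowest were near the read minimum of the group.

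**Figure D1:**
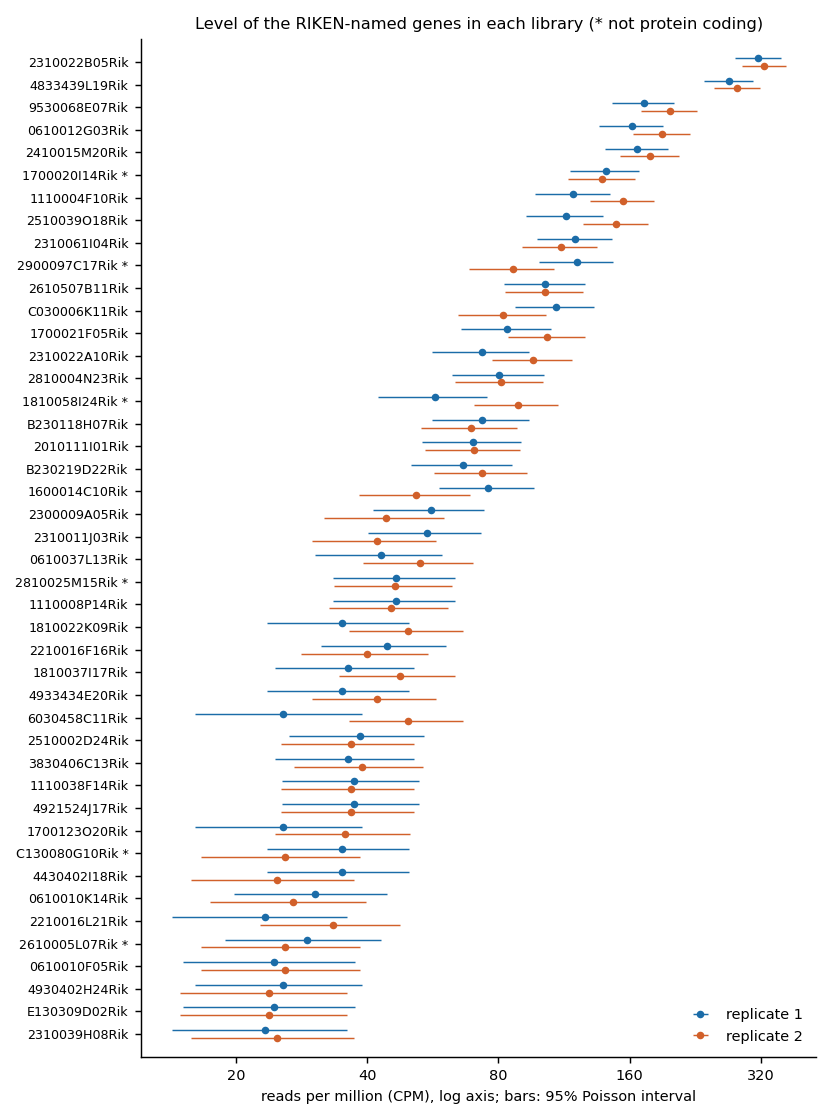
Level of each of the 44 genes in replicate 1 (blue) and replicate 2 (orange) in CPM on a log axis, ordered by the mean, with 95% Poisson intervals that cover counting error only. The values run from 24.1 CPM in 2310039H08Rik to 320.9 in 2310022B05Rik, and an asterisk marks the 6 genes that are not protein coding.

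Some of the small coding genes encode proteins of mitochondria and membranes. Which cells of the heart held their RNA was not tested. 2410015M20Rik, now Micos13, is a subunit of MICOS, the complex that holds the junctions of the inner mitochondrial membrane. With 172.4 ± 8.08 CPM (SD, n = 2) it came after Chchd3 at 526.4 ± 10.3 and Minos1 at 460.4 ± 69.3, and before the other genes of the complex with reads, Apool at 68.1, Immt at 57.6, Apoo at 54.3 and Chchd6 at 21.3. None of these 7 genes was called between the libraries by the exact binomial test described below, at an adjusted p of 0.101 for Minos1 and higher for the others. 1810037I17Rik had 36.1 and 47.5 CPM, while Pln, the main inhibitor of the cardiac calcium pump, had 1595 and 1628, Sln, a related inhibitor, 118.9 and 131.7, and Atp2a2, the pump itself, 8932 and 8769. The comparison with Pln, Sln and Atp2a2 was chosen after the values were seen.

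The remaining coding genes lay between 24.1 and 93.8 CPM. Genes with a known product in mitochondria or the cilium were 1700021F05Rik, now Mtres1, which protects mitochondrial transcription, with 93.8 ± 13.9 CPM (SD, n = 2), 1600014C10Rik, the counterpart of the membrane protein gene C19orf12, with 63.8 ± 16.9, B230118H07Rik, now Iftap, with 71.2 ± 3.07, and 4930402H24Rik with 24.7 ± 1.34. Others were 2310022A10Rik at 84.7, 2810004N23Rik at 80.7, 2010111I01Rik (the aminopeptidase Aopep) at 70.04, B230219D22Rik at 69.9, 0610037L13Rik (the zinc-binding Czib) at 48.0, 1110008P14Rik at 46.0, 1810022K09Rik (Rbis, a factor of ribosome biogenesis) at 42.3, 2210016F16Rik (salvage of queuosine, a modified base of tRNA) at 42.1, 4933434E20Rik at 38.5, 0610010K14Rik at 28.6 and 2210016L21Rik at 28.4 CPM. The rest, 2300009A05Rik, 2310011J03Rik, 6030458C11Rik, 2510002D24Rik, 3830406C13Rik, 1110038F14Rik, 4921524J17Rik, 1700123O20Rik, 4430402I18Rik, 0610010F05Rik, E130309D02Rik and 2310039H08Rik, ranged from 24.1 to 50.1 CPM. In 7 of the 44 genes, a transcript of another, non-overlapping gene matches at least 25% of the gene's transcript at 90% identity or more. For 1810022K09Rik this is Gm4540, which matches 91.3% at 99.5% identity and had 1 read in each library. How reads were divided between such genes is uncertain.

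Between the libraries, none of the 44 genes was called by a two-sided exact binomial test of reads given the library totals, with Benjamini-Hochberg adjustment over all 9433 annotated genes with at least 10 reads in all. Over all genes the test called 162, or 1.72%. At an unadjusted p under 0.05 there were 5 of 44 (11.4%), beside 576 of 5118 other genes (11.3%), so the share was near the background. The read minimum in each library limits how far a gene of the group can differ, so these counts are a description. The 5 were 6030458C11Rik, 1810058I24Rik, 2900097C17Rik, 1110004F10Rik and 1600014C10Rik, chosen for description here after their values were seen.

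6030458C11Rik had 22 reads in replicate 1 and 46 in replicate 2, a log2 ratio of 0.95 with a 95% interval from 0.19 to 1.76 (exact binomial test, adjusted p = 0.255). 1810058I24Rik had 49 and 82 reads, a log2 ratio of 0.63 (adjusted p = 0.294, exact binomial test). 2900097C17Rik had 104 and 80 reads, a log2 ratio of -0.49 (adjusted p = 0.375, exact binomial test). The 189 and 191 reads on the strand opposite that gene were not part of this ratio. 1110004F10Rik had 118.9 and 154.3 CPM, and 1600014C10Rik had 65 and 48 reads, with an adjusted p of 0.511 and 0.516 in the same exact test. The first 2 genes and 1110004F10Rik were higher in replicate 2, the other two in replicate 1. In all, 23 of the 44 genes were higher in replicate 2, and the median log2 ratio was 0.01.

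**Figure D2:**
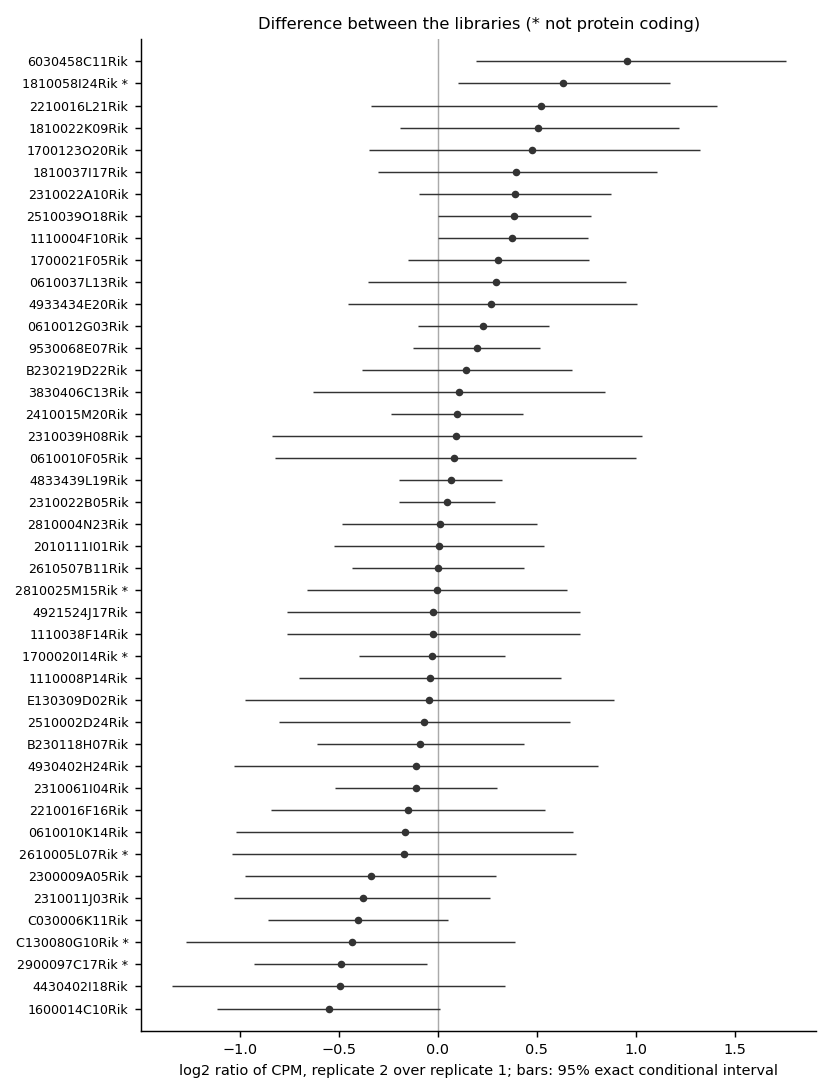
Log2 ratio of CPM, replicate 2 over replicate 1, for each of the 44 genes, with exact conditional 95% intervals that cover counting error only. The ratios run from -0.55 in 1600014C10Rik to 0.95 in 6030458C11Rik, and 23 genes lie above 0.

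Reads were next divided by the class of their transcript model, with genomic reads, those within a gene that match no splicing pattern, in the denominator. Over the 44 genes, 81.6% and 82.5% of reads were on annotated transcripts (82.1 ± 0.67, SD, n = 2), beside 80.8% in the other genes. Incomplete models, which hold part of an annotated chain of introns, took 6.32%, beside 8.57%. New combinations of known splice sites took 5.02%, beside 5.39%, models with a new splice site 3.78%, beside 3.08%, and genomic models 2.81%, beside 2.14%. Of the incomplete reads of the group, 68.3% and 65.1% lacked the 5′ part and kept the 3′ end. The median gene had 91.0% and 87.8% of its reads on annotated transcripts, beside 84.8% and 85.0% in the other genes, and 22 of 44 (50%, beside 36.9%) had at least 90% on average. The other genes were not matched for exon number or depth. Their leading transcripts had a median of 8 exons, beside 4 in the group, and their median level was 64.2 CPM, beside 48.2. 0610012G03Rik, 2300009A05Rik, 1110008P14Rik, 1810037I17Rik and 2310039H08Rik had all their reads on annotated transcripts, 4 of them with fewer than 50 reads in each library. 0610012G03Rik and 2310039H08Rik have 1 annotated transcript of 1 exon, so they have no chain of introns that could be incomplete or newly combined. The leading transcripts of the others have 2 exons, which leaves little room for such models.

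In 7 of the 44 genes (15.9%, beside 14.1% of the other genes) fewer than 50% of reads were on annotated transcripts. 2610005L07Rik had no read on an annotated transcript in either library: 18 reads in each library were on incomplete models, of 25 and 24 without the genomic ones. This pseudogene has no annotated leading transcript in these data. 4430402I18Rik had 1 and 3 reads on annotated transcripts (7.92% ± 6.48, SD, n = 2) and 77.5% on unannotated spliced forms, the highest such share of the group. In 4930402H24Rik, whose leading transcript has 37 exons, 30.9% ± 7.21 of reads were annotated and 30.5% were on unannotated spliced forms. C130080G10Rik had 12 and 9 reads on annotated transcripts and 9 and 8 on incomplete ones. B230219D22Rik had 42.7% ± 8.24 annotated and 49.7% on models with a new splice site.

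The other 2 genes differ in what the remaining reads hold. 2610507B11Rik, with 39 exons and 7443 bases, had 47.6% ± 5.05 of reads (SD, n = 2) on its annotated transcript and 44.0% ± 2.80 on incomplete models. 4833439L19Rik had 47.9% ± 1.32 on annotated transcripts and 39.8% on unannotated spliced forms. After these, 0610010F05Rik had the fourth highest share on unannotated spliced forms, 38.1%. Over the 43 genes with an annotated leading transcript, the incomplete share had a median of 1.25% in the 21 with a transcript under 2 kb and 3.52% in the 22 with a longer one.

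In 17 of the 44 genes (38.6%, beside 39.7% of the other genes) neither library had a genomic read, a share near the background. The highest shares were in 4930402H24Rik (20.5% ± 12.04, SD, n = 2), 1700020I14Rik (19.1% ± 0.50), 2610005L07Rik (16.2% ± 12.4), 2210016F16Rik (13.1% ± 11.5) and 2310022A10Rik (9.40% ± 0.99). In 1700020I14Rik they were 28 and 31 reads, beside 121 and 128 others, and so alike in both libraries. In 2210016F16Rik they were 2 and 10 reads, beside 38 and 37 others, so that share rests mainly on replicate 2.

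**Figure D3:**
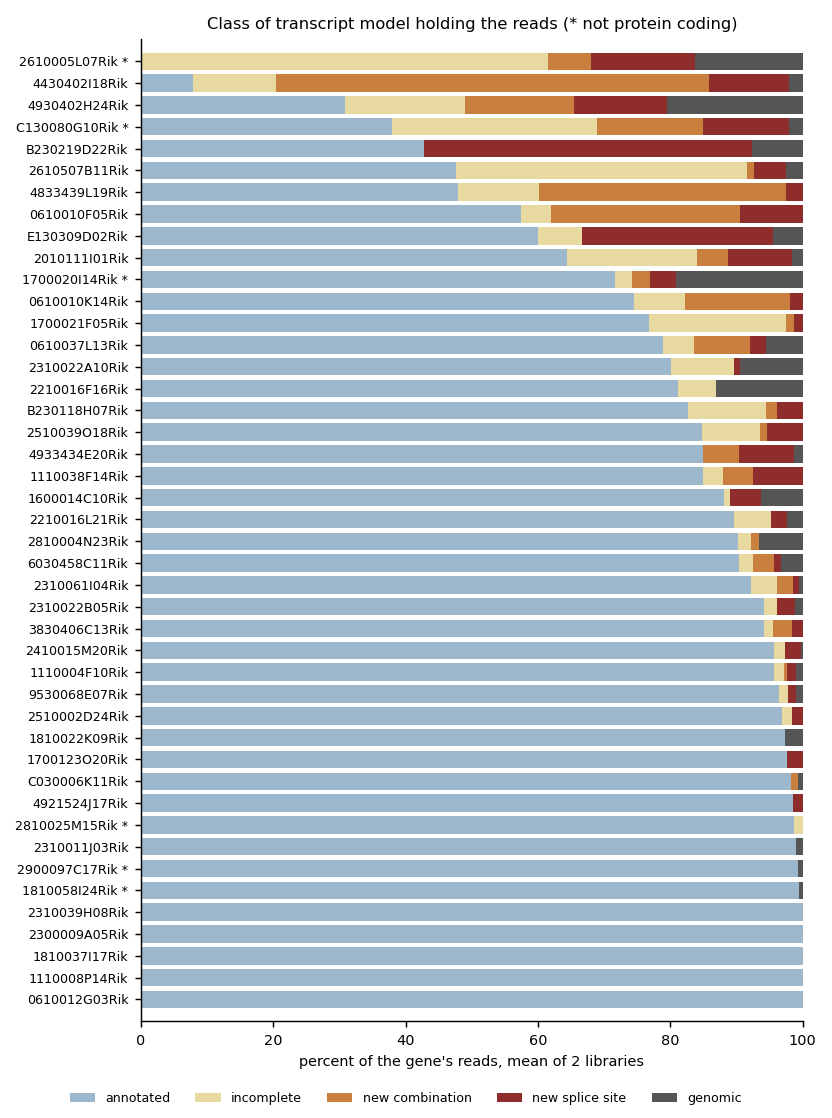
Percent of each gene's reads on annotated, incomplete, new combination, new splice site and genomic models, mean of 2 libraries, ordered by the annotated share. The annotated part runs from 0% in 2610005L07Rik to 100% in the 5 lowest rows, and 4430402I18Rik and B230219D22Rik, near the top, have 77.5% and 49.7% on new spliced forms.

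Each gene's leading form, the one with the most reads, was given as a percent of its usable reads, those on annotated transcripts and on unannotated spliced forms with at least 5 reads in each library. It could be given for the 36 genes with 20 usable reads or more in each library. The median was 95.9%, beside 98.3% in 4295 other genes, and 14 of 36 (38.9%) were under 90%, beside 30.4%. In 12 genes (33.3%, beside 37.2%) all usable reads were on 1 form in both libraries, 9530068E07Rik and 2410015M20Rik among them. Of these, 0610012G03Rik, 2510039O18Rik, 2310011J03Rik, 2210016F16Rik, 1810037I17Rik and 2310039H08Rik have 1 annotated transcript. No unannotated form of theirs reached 5 reads in each library, so their share was 100% by definition. 2610507B11Rik was also among the 12, though 47.6% of all its reads were on annotated transcripts. The leading share differed by a median of 1.99 percentage points between the libraries, beside 0.855 in the other genes. The other genes were not matched for depth, and their median level was higher, 64.2 CPM beside 48.2. With Fisher's exact test, two-sided and adjusted over all testable genes, none of the 24 testable genes was called, beside 0.0734% of 2723 genes tested in all. At an unadjusted p under 0.05 there was 1 of the 24, C030006K11Rik, beside 94 of 2699 other genes.

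**Figure D4:**
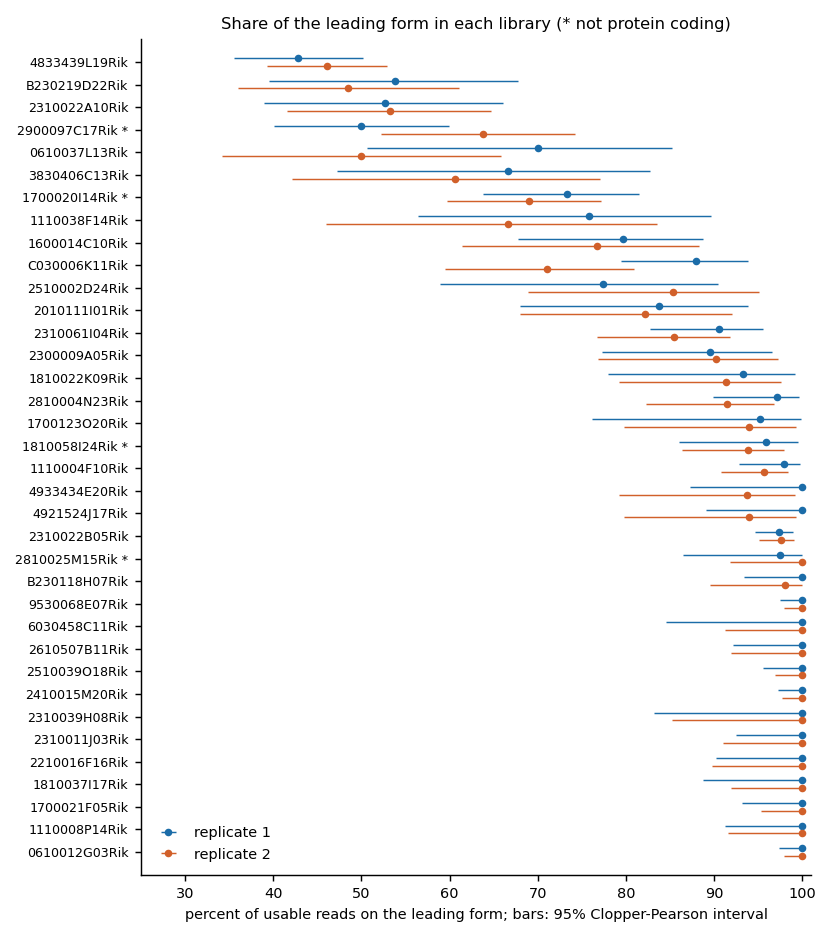
Percent of usable reads on the leading form in replicate 1 (blue) and replicate 2 (orange) for 36 genes, with 95% Clopper-Pearson intervals. 4833439L19Rik is lowest at 44.4% on average, and the intervals of the libraries overlap in every gene drawn.

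4833439L19Rik had the lowest leading share of the 36 genes. Its 9-exon transcript 4833439L19Rik-201 held 80 of 187 and 100 of 217 usable reads, 42.8% and 46.1% (44.4 ± 2.34, SD, n = 2). An unannotated 7-exon form held 61 and 72 reads, 32.6% and 33.2% (32.9 ± 0.40). It lacks 2 adjacent internal exons of 107 and 88 bases at chr13:54564515-54564621 and chr13:54564185-54564272 on the - strand of mm10. An 8-exon unannotated form without the 107-base exon held 17 reads in each library, or 8.46% ± 0.89, and 4833439L19Rik-209 held 20 in each, or 9.96% ± 1.05. Among annotated forms alone, 4833439L19Rik-201 held 75.8%.

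Over all reads that span it, the 88-base exon was included in 51.0% and 51.5% (51.2 ± 0.35, SD, n = 2), with 200 and 235 spanning reads. The 107-base exon was included in 46.5% and 47.4%. The next internal exons, of 179 and 127 bases, were included in 86.6% ± 0.87 and 89.3% ± 1.46 (SD, n = 2). The 88-base exon is the third of 4833439L19Rik-201 and holds its annotated start codon, so the 7-exon form does not contain that start. The longest reading frame of the 7-exon form, built from annotated exon bases, had 284 codons and ended at the annotated stop, beside 303 codons in 4833439L19Rik-201. The 8-exon form kept the annotated start and all 303 codons. A transcript of Ptrhd1 matches 84.0% of 4833439L19Rik-201 at 93.5% identity, and Ptrhd1 had 9 and 10 reads, so how reads were divided between these genes is uncertain.

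**Figure D5:**
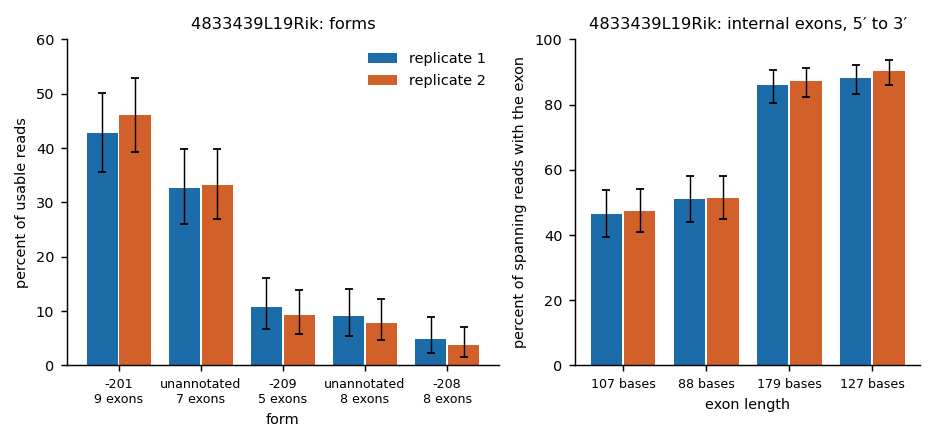
Forms of 4833439L19Rik (left, percent of usable reads) and its internal exons (right, percent of spanning reads that include the exon) in replicate 1 (blue) and replicate 2 (orange), with 95% Clopper-Pearson intervals. The 107- and 88-base exons sit near 47% and 51% in both libraries, and the 179- and 127-base exons between 86% and 91%.

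B230219D22Rik, the counterpart of human C5orf24, was the 1 gene of the 36 whose leading form is unannotated (2.78%, beside 4.07% of 4295 other genes). That form held 28 of 52 and 32 of 66 usable reads, 53.8% and 48.5% (51.2 ± 3.79, SD, n = 2), and the annotated B230219D22Rik-201 held the rest. It lacks 174 bases of the last annotated exon, chr13:55700214-55700387 on the + strand, which lie after the coding sequence. Over all its models the gap had 29 and 33 reads. The missing stretch begins with gt and ends with ag, the letters of most introns. A repeat of 15 bases stands at both ends, 175 bases apart, so the exact ends of the gap within it are uncertain. Whether the gap is an intron was not tested. The first copy lies at chr13:55700210-55700224 and the second at chr13:55700385-55700399, and the repeat is printed once because the copies are identical.
repeat at the ends of the gap: aagagtataggcagc

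The coding sequence of 188 codons is the same in both forms of B230219D22Rik. The animals carry 2 parental genomes and the reads were placed on 1 reference genome, and whether the gap follows a parental genome was not tested.

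A smaller change was read in 2310022B05Rik, whose annotated transcript held 259 of 266 and 287 of 294 usable reads (97.5% ± 0.18, SD, n = 2). The other 7 reads in each library shared a form that leaves out the first 39 bases of the third exon, chr8:124639577-124639615 on the - strand. The stretch is coding and 13 codons long, and the reading frame of the form had 309 codons beside 322. It is shown with its last 2 bases in capitals, which stand where the last bases of an intron would be.
bases left out of 2310022B05Rik: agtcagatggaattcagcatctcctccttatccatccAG

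In 2310022A10Rik reads were divided among annotated transcripts: 2310022A10Rik-204 held 52.6% and 53.2% (52.9 ± 0.43, SD, n = 2), 2310022A10Rik-205 33.8% ± 1.85 and 2310022A10Rik-201 13.3% ± 1.42. In 1700020I14Rik, 1700020I14Rik-202 held 77 of 105 and 80 of 116 (71.1% ± 3.09) and 1700020I14Rik-201 the rest. In 2900097C17Rik, the long 2900097C17Rik-202 held 52 of 104 and 51 of 80 reads, 50% and 63.8% (56.9 ± 9.72). The other reads were on 2900097C17Rik-201, a model of 339 bases that lies within 2900097C17Rik-202 and holds no TGTANATA. Both models have a single exon, so here a read of part of the long RNA cannot be told from a short transcript by its splicing.

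C030006K11Rik-201 held 80 of 91 and 54 of 76 usable reads, 87.9% and 71.1% (79.5 ± 11.9, SD, n = 2; Fisher's exact test, unadjusted p = 0.0105, not called). The annotated retained-intron models C030006K11Rik-205 and C030006K11Rik-204 held 4 and 3 reads in replicate 1, and 10 and 7 in replicate 2. 2310061I04Rik-204 held 90.5% and 85.4%, and 2810004N23Rik-201 held 97.1% and 91.4%. The other genes with a leading share under 90%, all with fewer than 50 usable reads in at least 1 library, were 0610037L13Rik (60% ± 14.1), 3830406C13Rik (63.6% ± 4.29), 1110038F14Rik (71.3% ± 6.50), 1600014C10Rik (78.2% ± 2.08), 2510002D24Rik (81.4% ± 5.57), 2010111I01Rik (83.0% ± 1.10) and 2300009A05Rik (89.9% ± 0.47).

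Inclusion of internal exons could be tested for 11 exons in 6 of the 44 genes, where both libraries had 20 or more spanning reads and inclusion averaged between 5 and 95%. None was called by the same exact test of Fisher with adjusted p-values, and over all genes 0% of 1915 exons were called. At an unadjusted p under 0.05 there were 0 of 11, beside 65 of 1904 in the other genes. Besides those of 4833439L19Rik, the exons nearest to even use, picked after their values were seen, were a 105-base exon of 0610010K14Rik, the counterpart of the chromatin factor Bap18, at 47.8% and 56.0% (51.9 ± 5.78, SD, n = 2), and a 42-base exon of 4430402I18Rik at 36% and 55% (45.5 ± 13.4). Both are coding, and both have a length that keeps the reading frame. An unannotated 162-base exon of 2510039O18Rik was included in 7 of 90 and 3 of 131 reads (5.03% ± 3.88). The 0610010K14Rik reads are uncertain, since the annotated gene Gm21988 overlaps it, matches its transcript at 99.5% identity and had 4 and 6 reads.

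Reads of 2010111I01Rik, chosen for description after its values were seen, lay mostly at the end of the gene. It spans chr13:62964893-63326096 on the + strand, with 823 codons in its longest annotated coding sequence, and 58 of 60 and 64 of 65 reads were on models that begin at the first exon of 2010111I01Rik-224 or later. That 6-exon transcript of 181 codons held 31 of 37 and 37 of 45 usable reads. Its intron at chr13:63298857-63301778 holds the hairpins of Mir23b, Mir27b and Mir24-1 on the same strand, a microRNA cluster known from blood vessels and heart muscle, and Mir3074-1 on the other strand. The hairpins of Mir27b, Mir24-1 and Mir3074-1 also overlap an exon of another annotated transcript of the gene, so they are intronic in 2010111I01Rik-224 but not in every transcript. The mature forms from the 3′ arms of Mir27b and Mir24-1 are shown from RefSeq (GRCm38.p6), with the seed in capitals, which differs between them.
mmu-miR-27b-3p: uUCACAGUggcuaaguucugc
mmu-miR-24-3p: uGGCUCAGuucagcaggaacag

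An annotated start on the opposite strand within 1000 bases, a head-to-head neighbour, was found for 15 of the 44 genes (34.1%, beside 28.4% of the other genes), and a coding one for 10 (22.7%, beside 18%). Starts in either direction were counted, so the genes of a pair can overlap. Of the pairs named here, those with Gnpat, Rasal2, Gm16279 and Gm16759 do. 0610012G03Rik, a single-exon gene of 95 codons, starts 19 bases from Ncbp2, a subunit of the complex that binds the cap of messenger RNA, and had 139 and 176 reads where Ncbp2 had 33 and 40. 2310022A10Rik starts 15 bases from Pld3 and had 63 and 89 reads, beside 52 and 57 for Pld3. For 2810004N23Rik the neighbour is Gnpat at 87 bases, which had more reads, 193 and 220 beside 69 and 75. For 1110004F10Rik it is Sox6 at 601 bases with 5 and 1 reads, and for the pseudogene 2810025M15Rik it is Rasal2 at 243 bases with 2 and 6. The neighbours of 2310061I04Rik (Gm16279), 2300009A05Rik (Gm16759) and 1810037I17Rik (4933405D12Rik) are non-coding, and their reads came to 0 or 1 in each library. C130080G10Rik, which starts 787 bases from the cardiac actin gene Actc1 and was picked after its values were seen, had 30 and 24 reads where Actc1 had 4268 and 5113.

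RefSeq promoter windows, 250 bases before to 50 after a gene's start, were found for 35 of the 44 genes. They held a median of 23 CG pairs, beside 22 in 4003 other genes at this depth and 7 in all 27025 genes. The letters GGGCGG on either strand, a GC box, were in 20 of 35 windows (57.1%), beside 67.4% of the other genes at this depth and 35.9% of all genes. TATAAA was in 2 of 35, beside 14.2% of all genes, and its share in the other genes at this depth is not given here. The window of 0610012G03Rik, chr16:31948456-31948755 on the - strand of GRCm38.p6, is shown because both genes of this pair start in it. It holds 42 CG pairs and 2 GC boxes, in capitals, and the GENCODE starts of Ncbp2 and 0610012G03Rik fall on its bases 243 and 262.
promoter window of 0610012G03Rik: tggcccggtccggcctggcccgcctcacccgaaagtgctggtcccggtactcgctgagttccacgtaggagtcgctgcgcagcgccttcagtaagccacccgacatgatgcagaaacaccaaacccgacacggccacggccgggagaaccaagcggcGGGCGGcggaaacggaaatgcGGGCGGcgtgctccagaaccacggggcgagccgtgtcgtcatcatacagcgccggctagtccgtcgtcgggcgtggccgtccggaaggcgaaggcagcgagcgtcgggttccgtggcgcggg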

How the data were processed

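The authors deposited, for each library, a table of whole-number read counts per transcript model and a paired annotation of the models, made by TALON, per the file headers; the deposited notes name mm10 and GENCODE M21. The aligner and its settings: not given in the sources used here. Counts were summed per gene over all classes except genomic models, and spike-ins were left out of totals. Gene positions were taken from GENCODE M21. Levels are CPM with exact Poisson intervals, and shares have Clopper-Pearson intervals at 95%, which cover counting error only. A count of 0 allows up to 3 counts, or 3.50 and 3.24 CPM.

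Differences between libraries were tested with a two-sided exact binomial test (reads) and Fisher's exact test (leading form, exons) at an adjusted p of 0.05, since 1 group of 2 libraries leaves no residual degrees of freedom for edgeR. The steps were tested on simulated data. Alternatives were other read minimums and model classes, totals scaled by edgeR 4.0.16 (TMM) or DESeq2 1.42.0 size factors, and each library alone. Python 3.11.15, pandas 2.3.3, scipy 1.17.1 and blastn 2.17.0 were used.

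The members and lists were chosen with earlier results of these data known. Named were the 12 highest genes, the 6 highest non-coding genes, any called, the 8 with the lowest leading share among those with 50 usable reads in each library, the 5 with the lowest annotated, the highest unannotated spliced and the highest genomic share, up to 8 head-to-head genes by CPM, members of the MICOS list and the 3 on either side of the read minimum; the others were named once by group. Some genes, exons and forms were described outside this rule, after their values were seen. Of the context lists, that of the ATP synthase held no member, and that of the tRNA ligase complex was not used because 0610037L13Rik, its 1 member, was put there without a source. Matched RefSeq names differed for 8 of the 44 genes, and 2900097C17Rik matched more than 1.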

Additional observations from a re-analysis of the deposited data

Results flagged for a closer look

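Opposite some of the RIKEN-named genes both libraries held reads on unannotated loci of the other strand, which no comparison of the report uses. Opposite 2900097C17Rik there were 189 reads in replicate 1 and 191 in replicate 2, more than the 104 and 80 on the gene itself. They lay on models of 1 exon on the + strand, chr2:156387222-156391514 in replicate 1 and chr2:156388065-156391514 in replicate 2, of which 3450 bases lie opposite the gene. The other genes had far fewer: 13 and 19 reads opposite 2010111I01Rik, 9 and 10 opposite 4930402H24Rik, 8 and 5 opposite 4921524J17Rik, and 4 and 6 opposite 2610507B11Rik. These genes are given because their opposite reads stood, in both libraries, above the 3 counts that a count of 0 allows. Above it in 1 library only were 6030458C11Rik with 2 and 8 reads, 1700020I14Rik with 6 and 2, and B230219D22Rik with 3 and 5. The source of these reads was not tested, and how strand was set for reads without introns is not given in the sources used here.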

How the results depend on the processing

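The number of genes follows the read minimum: 92 genes had at least 10 reads in each library and 18 had at least 50, beside 44 at 20, and 1 library alone gave 47 to 60. The summed level was 2894.2 CPM on annotated models alone, and 3342.4 to 3510.8 with each library alone. As the median over genes in place of pooled reads, the annotated share was 89.4%, the incomplete share 2.21%, the share of new combinations 0%, that of new splice sites 1.87% and the genomic share 0.15%; with each library alone the pooled annotated share was 81.6% to 82.5%. Within 500 bases, an alternative chosen after seeing the data, 9 genes were head to head, beside 15. With annotated forms alone the leading share was 75.8% in 4833439L19Rik and 100% in B230219D22Rik, and with incomplete models counted it was 40.1% in 4833439L19Rik and 48.3% in 2310022A10Rik. No RIKEN-named gene was called between the libraries under any scaling, class or minimum tried, while 120 to 178 of all genes were. With incomplete models left out, the exon test called 4 of 1826 exons over all genes, beside 0 of 1915 with them. Of the 11 exons of the group it called 0 under either setting. No result reversed. No paired analysis was possible because there is 1 group. Depth limits the lowest genes, where 20 reads give wide intervals.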
